A study of Mus musculus with 10 samples.

Results

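The interleukin-6 (IL-6) family signalling route was followed in mouse lungs at P14 through 10 of its genes: the receptor chains Il6ra, Il6st, Lifr and Osmr, the transcription factors Stat3, Stat5a and Stat5b, and the feedback inhibitors Socs2, Socs3 and Cish. They were taken by gene name from the deposited table of 54532 genes, and all 10 were found. The genes were chosen from their IncPBF and sham values in these same lungs, so the difference between the groups is given for them as a description, with no test. The IncPBF group (increased pulmonary blood flow) consisted of 5 lungs of wild-type C57/BL6 pups in which a fistula between the abdominal aorta and the inferior vena cava had been made with a needle at P7. The sham group consisted of 5 lungs of wild-type pups that had the same laparotomy at P7 without the puncture. Male or female pups were used according to the methods, and no label states the sex, litter or surgery date of a lung. Nothing states that the lungs of a group came from separate litters, so p-values measure only the spread between these samples, which may be technical.

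Cytokines of the IL-6 family bind a receptor made of a ligand-specific chain and a shared signalling chain, gp130, which Il6st encodes. Janus kinases bound to these chains then phosphorylate STAT proteins, which pair, enter the nucleus and bind DNA. STAT proteins induce SOCS proteins and CIS, which bind receptors or kinases and end the signal. In the lung this route is known for its part in epithelial survival, repair after injury and the acute-phase response, and the STAT5 arm is also used by growth hormone and by several haematopoietic cytokines.

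The values are FPKM, fragments per kilobase of gene length after scaling for library size, as the authors deposited them. Whole fragments could be recovered from them, and fragments on genes per lung ran from 16103423 to 20318525 in the IncPBF group and from 18171494 to 19400575 in the sham group. Per lung, a member had between 305 and 7775 fragments. Bulk RNA-sequencing measures all cells of a lung together, and fewer cells of a type cannot be told apart from less RNA per cell. The hepatocyte genes Alb, Apoa1, Ttr and Apob summed to at most 0.82 FPKM in any lung, whereas the alveolar type 2 gene Sftpc was at least 9583 FPKM.

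The sequences that STAT proteins read carry the feedback arm of the route. A STAT dimer is known to bind TTCNNNGAA, a palindromic element called a GAS site, in which N is any base. The RefSeq windows of 250 bases before and 50 bases after each annotated start on GRCm38.p6 were searched for it. The element reads the same on both strands, so a search of 1 strand covers both. It occurred in 2 of the 9 members that have a window, Socs3 and Cish, and in none of the windows of the other 7. Socs2 has no window and was not searched. Of all 32851 windows, 8.3% held it at least once and 0.457% held it more than once, and 9.55% of 27025 genes held it in at least 1 of their windows. These are matches of letters, and binding was not measured in these lungs. Socs3 has 1 match, at position -154 from its start, chr11:117969512-117969520. It is shown in capitals within chr11:117969452-117969616 on the minus strand, because it is the only match in that window. In GENCODE these bases lie before the first exon of 2 of the 3 Socs3 transcripts, the coding one included, and within an intron of the other.
Socs3: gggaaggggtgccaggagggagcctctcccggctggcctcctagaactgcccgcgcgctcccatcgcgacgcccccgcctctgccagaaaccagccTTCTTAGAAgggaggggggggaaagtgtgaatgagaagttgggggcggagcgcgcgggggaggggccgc
Cish has 2 matches side by side, at the annotated start and 11 bases after it. They are shown in capitals within chr9:107296654-107296683 on the plus strand, because so close a pair is the arrangement in which STAT5 dimers are known to bind next to each other.
Cish: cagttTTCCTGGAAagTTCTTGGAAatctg

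The mean was lower in the IncPBF group for 8 of the 10 members and higher for 2. The groups did not overlap in 6 members: Il6ra, Lifr, Osmr, Stat3 and Stat5b were lower in all 5 IncPBF lungs than in any sham lung, and Socs2 was higher. Il6st, Stat5a, Socs3 and Cish overlapped. Of the 15388 genes tested, 11.2% were lower and 12% higher in the IncPBF group without overlap, and since the members were chosen on this contrast nothing is read from their count. The median log2 difference of the 10 members was -0.29, against 0.01 over all genes tested, and for the same reason nothing is read from it. Log2 differences are IncPBF minus sham on log2(FPKM + 0.1).

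**Figure D1:**
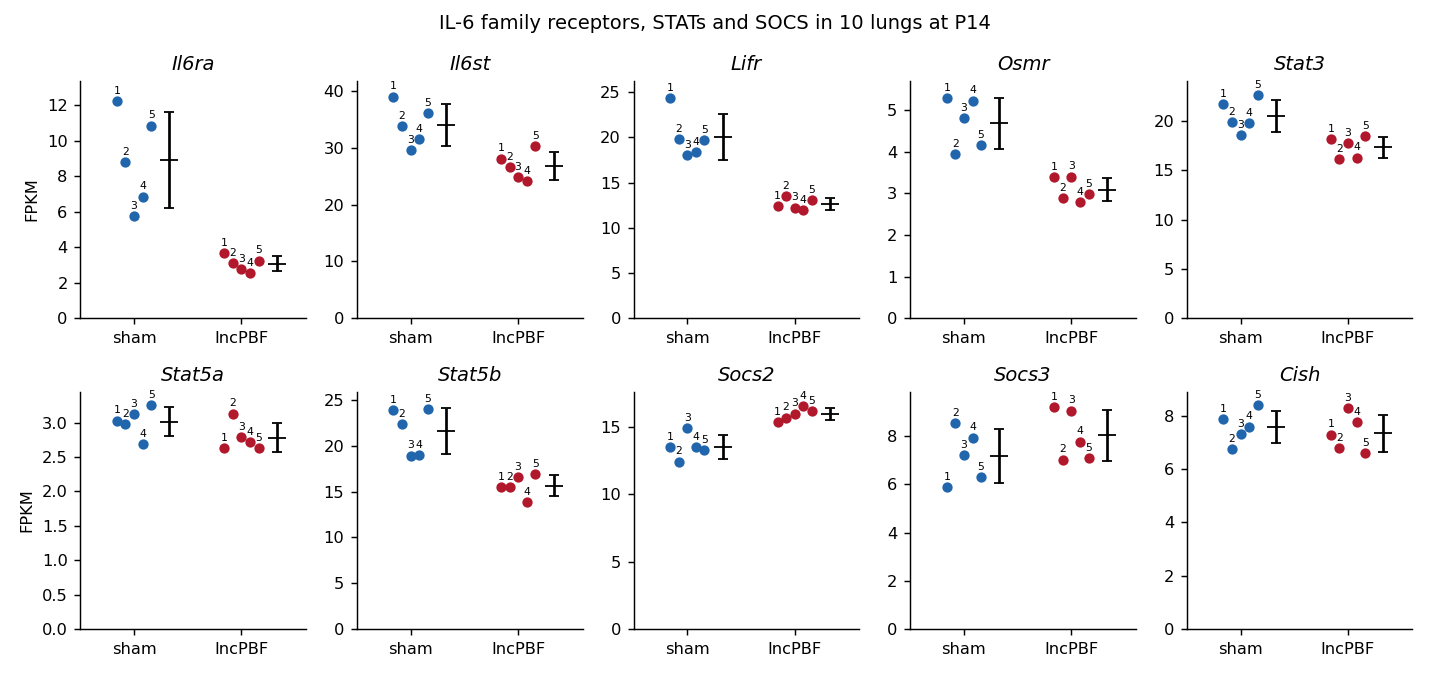
FPKM of the 10 members in each lung, with the sham lungs in blue and the IncPBF lungs in red, numbered 1 to 5; the bar beside each group is the mean ± SD. The 5 IncPBF lungs lie below all sham lungs for Il6ra, Lifr, Osmr, Stat3 and Stat5b and above them for Socs2.

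Il6ra (ENSMUSG00000027947, chr3:89864059-89913196 on GRCm38, minus strand) encodes the chain that binds IL-6 itself, and it differed most among the members. It stood at 12.2, 8.79, 5.76, 6.85 and 10.9 FPKM in sham lungs 1 to 5 and at 3.65, 3.10, 2.76, 2.56 and 3.24 FPKM in IncPBF lungs 1 to 5. Every IncPBF lung was below the lowest sham lung, sham lung 3. The means were 8.90 ± 2.69 FPKM in the sham group and 3.06 ± 0.426 FPKM in the IncPBF group (SD, n = 5 each), a log2 difference of -1.47 (SE 0.19). The sham lungs were spread 2.12-fold between the highest and the lowest lung, and the IncPBF lungs 1.43-fold. An antisense gene, Gm42809, overlaps 281 bases of Il6ra on the other strand and had at most 0.204 FPKM.

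Il6st (ENSMUSG00000021756, chr13:112464070-112510086, plus strand), the shared chain gp130, had the highest level of the members. Its FPKM were 39.0, 33.8, 29.5, 31.5 and 36.1 in sham lungs 1 to 5 and 28.1, 26.6, 24.8, 24.2 and 30.3 in IncPBF lungs 1 to 5. IncPBF lungs 1 to 4 lay below all sham lungs, and IncPBF lung 5 lay just above sham lung 3, so the groups overlapped by that pair alone. The means were 34.0 ± 3.73 and 26.8 ± 2.50 FPKM, a log2 difference of -0.34 (SE 0.09). Because Il6ra and Il6st are measured in the same lung, their ratio does not depend on the scaling of the lung. Per length, Il6ra stood at 19.5 to 31.4% of Il6st in the sham group and at 10.6 to 13.0% in the IncPBF group, without overlap.

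Lifr (ENSMUSG00000054263, chr15:7090614-7197489, plus strand), the chain for leukaemia inhibitory factor that pairs with gp130, was lower in the IncPBF group. It measured 24.3, 19.8, 18.1, 18.4 and 19.6 FPKM in sham lungs 1 to 5 and 12.4, 13.5, 12.2, 11.9 and 13.1 FPKM in IncPBF lungs 1 to 5. Sham lung 1 stood above the other sham lungs, and the IncPBF lungs lay within 1.13-fold of each other. The log2 difference was -0.66 (SE 0.08), from 20.04 ± 2.52 to 12.6 ± 0.652 FPKM. Relative to Il6st in the same lung, Lifr was 54.5 to 62.4% in the sham lungs and 43.1 to 50.9% in the IncPBF lungs.

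Osmr (ENSMUSG00000022146, chr15:6813577-6874969, minus strand) encodes the chain for oncostatin M, lies near Lifr on the same chromosome and had the lowest level of the 4 receptors in the sham lungs. Values of 5.29, 3.94, 4.81, 5.23 and 4.17 FPKM in sham lungs 1 to 5 stood against 3.39, 2.89, 3.41, 2.78 and 2.99 FPKM in IncPBF lungs 1 to 5. All IncPBF lungs were below all sham lungs, with means of 3.09 ± 0.287 and 4.69 ± 0.614 FPKM and a log2 difference of -0.58 (SE 0.10). The order of the sham lungs for Osmr was not that of Lifr: sham lung 4 was the second highest for Osmr and the second lowest for Lifr. As a share of Il6st, Osmr overlapped between the groups, at 11.6 to 16.6% in the sham lungs and 9.86 to 13.7% in the IncPBF lungs.

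The 3 STAT genes lie next to each other on chromosome 11, Stat5b at 100780731 to 100850724, Stat5a at 100859351 to 100885169 and Stat3 at 100885098 to 100939540. Stat3 (ENSMUSG00000004040), the main STAT of gp130, stood at 21.7, 19.9, 18.6, 19.8 and 22.6 FPKM in sham lungs 1 to 5 and at 18.1, 16.2, 17.7, 16.3 and 18.5 FPKM in IncPBF lungs 1 to 5. The groups were separated by a narrow margin, the highest IncPBF lung being at 18.46 and the lowest sham lung at 18.55 FPKM. The means were 20.5 ± 1.62 and 17.4 ± 1.07 FPKM, a log2 difference of -0.24 (SE 0.07). After rescaling every lung to 1 total on genes, Stat3 overlapped, which left 4 members lower without overlap.

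Stat5b (ENSMUSG00000020919, minus strand), the STAT5 form known for growth hormone signalling, had the largest difference of the 3 STAT genes, -0.46 on the log2 scale (SE 0.08). Its FPKM were 23.9, 22.4, 18.9, 19.0 and 24.0 in sham lungs 1 to 5 and 15.5, 15.5, 16.6, 13.9 and 16.9 in IncPBF lungs 1 to 5. No IncPBF lung reached the lowest sham lung, and the group means were 21.7 ± 2.52 and 15.7 ± 1.20 FPKM. Stat5a (ENSMUSG00000004043, plus strand), the form known for prolactin signalling, stood at 3.03, 2.98, 3.13, 2.68 and 3.25 FPKM in sham lungs 1 to 5 and at 2.63, 3.13, 2.79, 2.72 and 2.63 FPKM in IncPBF lungs 1 to 5. These ranges overlapped, with means of 3.01 ± 0.212 and 2.78 ± 0.209 FPKM and a log2 difference of -0.11 (SE 0.08).

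Reads cannot always be told apart between the 2 STAT5 genes. Their coding sequences are 90.8% identical over 2291 aligned bases in the GENCODE transcripts, and they share a run of 324 identical bases, positions 571 to 894 of both coding sequences. Of all stretches of 75 bases in the Stat5a coding sequence, 16.7% also occur in Stat5b. The Stat5a coding sequence has 2391 bases, and the gene length behind its FPKM is 7133 bases. Bases outside the coding sequences were not compared. The first 120 bases of the shared run are printed to show how long a fragment can be without holding a base that differs.
Stat5a and Stat5b: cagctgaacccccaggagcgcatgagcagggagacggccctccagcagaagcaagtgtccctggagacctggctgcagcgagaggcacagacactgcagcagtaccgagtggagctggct
How such fragments were assigned is not given in the sources used here. Per length, Stat5a stood at 12.7 to 20.2% of Stat5b over the 10 lungs. Stat3 and Stat5a also overlap by 72 bases on opposite strands, and whether counting used the strand is not stated.

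Socs2 (ENSMUSG00000020027, chr10:95385362-95417180, minus strand), an inhibitor of growth hormone signalling and a known STAT5 target, was the 1 member higher in all IncPBF lungs. It measured 13.5, 12.4, 14.9, 13.5 and 13.3 FPKM in sham lungs 1 to 5 and 15.3, 15.7, 15.98, 16.6 and 16.1 FPKM in IncPBF lungs 1 to 5. Sham lung 3 was highest in its group, the reverse of its place for Il6ra, Il6st, Lifr, Stat3 and Stat5b, where it was lowest. The means were 13.5 ± 0.897 and 15.9 ± 0.460 FPKM, a log2 difference of 0.24 (SE 0.05). Set against Stat5b in the same lung, Socs2 was 55.4 to 78.7% in the sham lungs and 95.4 to 119.5% in the IncPBF lungs, without overlap.

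Socs3 (ENSMUSG00000053113, chr11:117966079-117970047, minus strand), the inhibitor that binds gp130 and is induced by STAT3, did not separate the groups. Sham lungs 1 to 5 had 5.88, 8.56, 7.20, 7.94 and 6.30 FPKM and IncPBF lungs 1 to 5 had 9.21, 7.03, 9.06, 7.78 and 7.08 FPKM. IncPBF lungs 1 and 3 were above all sham lungs and the other 3 were within the sham range, and the log2 difference was 0.16 (SE 0.12). Sham lungs 1 and 5, the highest pair for Il6ra, Il6st, Stat3 and Stat5b, were the lowest pair for Socs3. Cish (ENSMUSG00000032578, chr9:107296026-107302784, plus strand), which encodes the STAT5-induced inhibitor CIS, had 7.88, 6.75, 7.31, 7.60 and 8.39 FPKM in sham lungs 1 to 5 and 7.29, 6.77, 8.30, 7.77 and 6.60 FPKM in IncPBF lungs 1 to 5. Its groups overlapped almost throughout, with a log2 difference of -0.05 (SE 0.08). Both genes whose windows hold the GAS element printed above were among the 4 members that overlapped. Socs2, which did not overlap, had no window to search, so nothing is read from this. Gm17040, a pseudogene on the other strand that overlaps Cish, had at most 0.377 FPKM.

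The levels in the sham lungs alone give the order of the members per length. Il6st led at 34.0 FPKM, and Stat5b, Stat3 and Lifr followed at 21.7, 20.5 and 20.04 FPKM. The ranges of Stat5b and Stat3 overlapped and so did those of Stat3 and Lifr, with the order held in 4 of 5 lungs in each case. Socs2 came next at 13.5 FPKM, below Lifr in 5 of 5 lungs and without overlap. Il6ra, Cish and Socs3 followed at 8.90, 7.58 and 7.18 FPKM and overlapped one after the other, each pair of neighbours keeping its order in 3 of 5 lungs. Osmr at 4.69 and Stat5a at 3.01 FPKM closed the order, each below the gene before it in 5 of 5 lungs. In the IncPBF lungs Il6ra moved down to the level of Osmr and Stat5a, and Socs2 stood beside Stat5b.

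**Figure D2:**
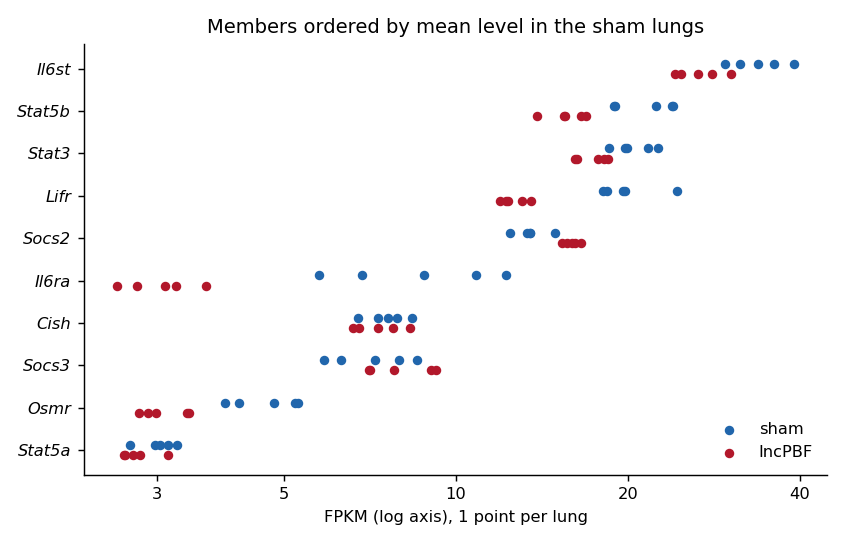
FPKM on a log axis, 1 point per lung, with the members ordered from top to bottom by their mean in the sham lungs (blue) and the IncPBF lungs in red. Il6st leads at 34.0 FPKM and Stat5a is last at 3.01 FPKM in the sham lungs, and the red points of Il6ra lie at 2.56 to 3.65 FPKM.

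The sham lungs varied together in part of the members. Sham lung 3 was the lowest and sham lung 1 or 5 the highest for Il6ra, Il6st, Lifr, Stat3 and Stat5b, 5 of the 10. With an equal total per lung, sham lung 3 stayed lowest for 4 of these 5 and sham lung 1 or 5 stayed highest for all 5. This place of sham lung 3 was not confined to the members. In summed FPKM of cell type markers it was lowest for endothelial, alveolar type 1, alveolar type 2, macrophage and T cell genes. It was highest for smooth muscle, neutrophil and erythroid genes. The part of cell types in the shared variation was not tested. By the mean absolute difference of log2 values over the 10 lungs, each gene centred on its own mean, the closest pairs of members were Il6st with Stat3 (0.07) and Il6st with Stat5b (0.09). Among all genes tested, the nearest to Il6ra by this distance were Prelp (0.09) and Pdgfra (0.10). For Il6st they were Trak2 and Ocln (0.03 each), for Lifr Stard13 (0.04) and Cry2 (0.06), and for Stat3 Stat6 and Mllt6 (0.03 each). This distance uses the same lungs and contrast that chose the members and is a description only.

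Sex-linked RNA moved with the groups. Xist, which coats the inactive X chromosome, reached 52.4 to 66.5 FPKM in IncPBF lungs 2 to 5 and no more than 0.077 FPKM in the other 6 lungs. Ddx3y, on the Y chromosome, reached 18.6 FPKM in IncPBF lung 1 and 21.9 to 24.6 FPKM in sham lungs. In IncPBF lungs 2 to 5 it was at most 0.0093 FPKM. By Xist and Ddx3y, IncPBF lungs 2 to 5 read as female and the other 6 lungs as male. IncPBF lung 1 is the lung of its group that is like the sham lungs in both. It was below all sham lungs for Il6ra, Il6st, Lifr, Osmr, Stat3, Stat5a and Stat5b, above all of them for Socs2 and Socs3, and within their range for Cish. A single lung lies outside the sham range more easily than a whole group does. The share of all genes for which IncPBF lung 1 did so was not counted, so nothing is read from these places. The log2 differences of IncPBF lung 1 from the sham lungs were -1.21 for Il6ra, -0.68 for Lifr, -0.45 for Osmr, -0.47 for Stat5b, -0.17 for Stat3 and 0.18 for Socs2. These rest on 1 lung.

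**Figure D3:**
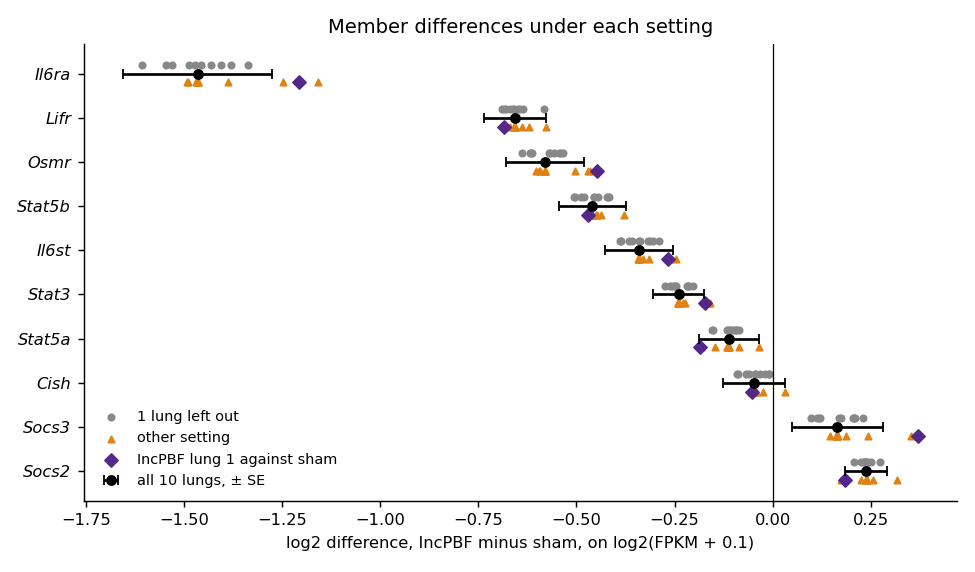
Log2 difference of each member, IncPBF minus sham, with all 10 lungs (black, ± SE), with 1 lung left out (grey), for IncPBF lung 1 against the sham lungs (purple diamonds) and under each other setting (orange triangles). Il6ra lies between -1.61 and -1.16 throughout, and of the 10 members Cish alone crosses 0.

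Markers of several cell types also moved with the groups. The 5 alveolar type 1 genes (Ager, Pdpn, Aqp5, Rtkn2, Hopx) summed to 1094 to 1428 FPKM in the sham group and 864.1 to 904.3 FPKM in the IncPBF group, and 5 of 5 were lower by limma. The 8 endothelial genes summed to 847.0 to 1081 and 754.3 to 837.3 FPKM, with 6 of 8 lower and 1 higher. The 4 smooth muscle genes summed to 78.8 to 194.8 and 250.2 to 479.7 FPKM, with 2 of 4 higher. Sums of the alveolar type 2, fibroblast, macrophage, neutrophil, T cell, B cell and erythroid genes overlapped between the groups. Single genes in them did pass the test: 4 of the 6 alveolar type 2 and 3 of the 4 erythroid genes were lower, and of the 6 fibroblast genes 2 were higher and 2 lower. The alveolar type 2 sum consists mostly of Sftpc. Sftpb, a surfactant protein, stood at 1188 to 1302 FPKM in sham and 704.1 to 870.5 FPKM in IncPBF lungs, and the fibroblast receptor gene Pdgfra at 44.3 to 73.7 and 18.8 to 26.3 FPKM, both without overlap. Col1a2 of the same fibroblast list went the other way, at 139.9 to 168.9 FPKM in sham and 174.3 to 213.5 FPKM in IncPBF lungs. The erythroid gene Hbb-bs split the IncPBF group. It stood at 175.9, 1089, 284.7, 127.8 and 786.1 FPKM in IncPBF lungs 1 to 5, against 702.8 to 1289 FPKM in sham lungs. None of the macrophage, neutrophil, T cell or B cell genes passed the test. The part of these cell types in the member differences was not tested.

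The rest of the pathway was read from lists of 81 other genes, of which 67 passed the filter of a mean of 0.5 FPKM. These genes were tested with limma, with Benjamini-Hochberg adjustment over all 15388 genes. The lists were chosen with earlier results of these data known, so their calls and p-values describe these lungs and are no independent test. At an adjusted p under 0.05, 8 of the 67 were higher and 17 lower in the IncPBF group, against 16.1% higher and 16.2% lower of all genes tested. That is 11.9% and 25.4% of the 67, with a median log2 difference of -0.06 against 0.01 over all genes. The shares over all genes are also the background for each list below, and nothing is read from the count of a single list. After rescaling every lung to the same total, 3559 of all genes (23.1%) were higher and 1782 (11.6%) lower in place of 2480 and 2490, and 11 of the pathway genes were higher and 13 lower. With log2 Xist as a covariate the pathway counts were 3 and 5, where 328 of all genes (2.13%) were higher and 413 (2.68%) lower. With IncPBF lung 1 as the only IncPBF lung they were 2 and 2, where 42 of all genes (0.273%) were higher and 112 (0.728%) lower. That last fit takes its spread from the 5 sham lungs and assumes that the lone IncPBF lung varies like them. Xist separates the groups in all lungs but IncPBF lung 1, so surgery and sex, as read from Xist and Ddx3y, cannot be told apart in the others. The group difference in the fit with log2 Xist as a covariate therefore also rests mostly on IncPBF lung 1.

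**Figure D4:**
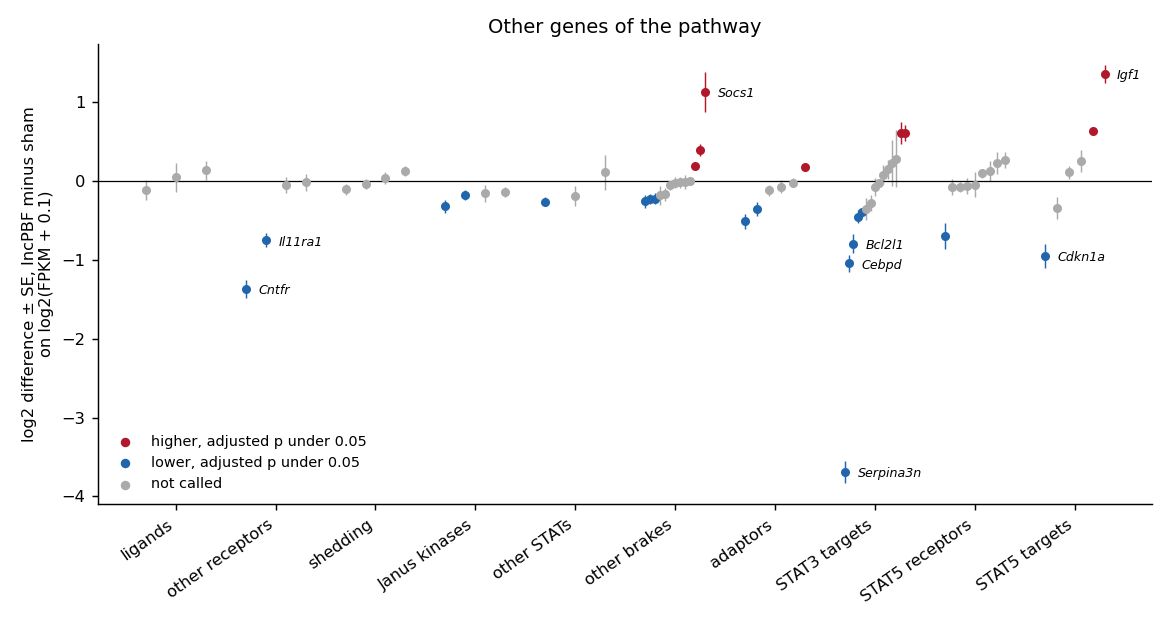
Log2 difference ± SE, IncPBF minus sham, of the 67 other pathway genes tested, by list, with genes higher (red) or lower (blue) at an adjusted p under 0.05 and the others in grey. Serpina3n, Cntfr and Cebpd are the lowest and Igf1 and Socs1 the highest, and no ligand or shedding gene was called.

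Of the 11 ligands of the family, 8 had a mean under the filter. Il31 had no fragment in any lung, which allows up to 3 in each, and Il6 had 0 to 3 fragments, at most 0.0659 FPKM, so a difference in Il6 was not detectable at this depth. None of the 3 ligands that passed the filter was called, and Clcf1 and Ctf1 stood at levels near that of Stat5a. Clcf1 (cardiotrophin-like cytokine) stood at 4.29 ± 0.559 FPKM in sham and 3.99 ± 0.789 FPKM in IncPBF lungs (adjusted p = 0.522), and Ctf1 (a cardiotrophin) at 2.95 ± 0.481 and 3.22 ± 0.344 FPKM (adjusted p = 0.436). Lif, the ligand of Lifr, was under the filter and is named here after its values were seen. Its fragments numbered 15 to 32 in sham and 29 to 81 in IncPBF lungs, which is 0.345, 0.994, 0.834, 0.613 and 0.376 FPKM in IncPBF lungs 1 to 5 and 0.295, 0.317, 0.391, 0.325 and 0.198 FPKM in sham lungs 1 to 5. IncPBF lungs 2, 3 and 4 were above all sham lungs and the other two were not, and the log2 difference of 0.78 had p = 0.0238 by the exact two-sided permutation test and 0.167 after adjustment over the 7 ligands tested in this way. The smallest p this test allows is 0.00794.

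Of the 5 other receptor chains, 2 fell. Cntfr, the chain for ciliary neurotrophic factor, stood at 4.61, 5.82, 6.07, 5.36 and 6.998 FPKM in sham lungs 1 to 5 and at 1.99, 2.19, 2.61, 2.00 and 2.02 FPKM in IncPBF lungs 1 to 5. Its highest IncPBF lung was below its lowest sham lung, and the log2 difference was -1.37 (SE 0.11, adjusted p = 1.79e-05). Il11ra1, the chain for interleukin-11, fell from 17.5 ± 2.15 to 10.3 ± 0.798 FPKM, a log2 difference of -0.75 (SE 0.09, adjusted p = 0.000125), also without overlap. Il6ra, Cntfr and Il11ra1 are the ligand-binding chains of the family that have no signalling tail of their own. With an equal total per lung both falls held, at -0.67 for Il11ra1 and -1.29 for Cntfr.

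**Figure D5:**
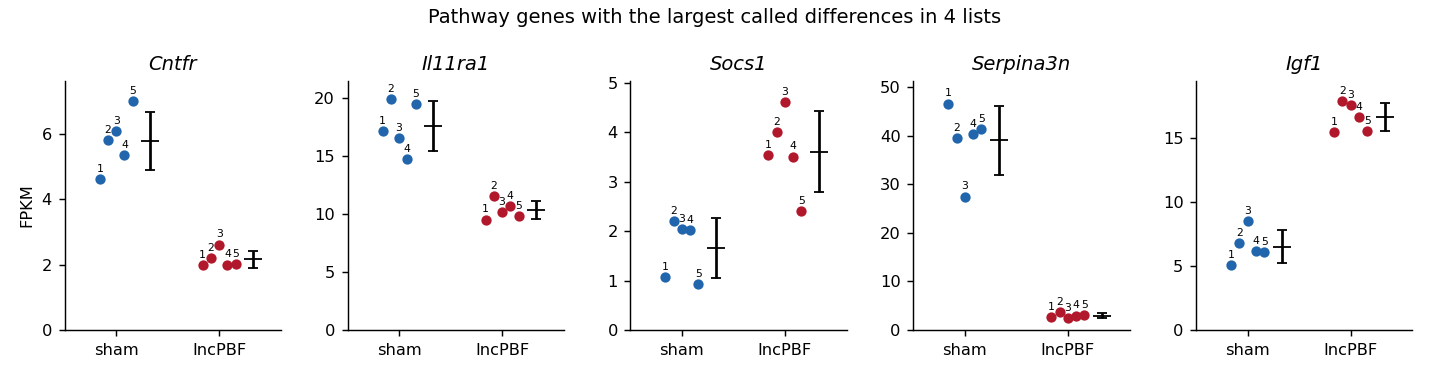
FPKM in each lung of Cntfr, Il11ra1, Socs1, Serpina3n and Igf1, with the sham lungs in blue and the IncPBF lungs in red, numbered 1 to 5; the bar beside each group is the mean ± SD. The groups do not overlap in any of the 5 genes, and the gap is narrowest for Socs1, between 2.21 and 2.40 FPKM.

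None of the 4 genes of receptor shedding was called. Adam10, a protease that cuts the IL-6 receptor from the cell surface, was at 41.7 ± 3.29 FPKM in sham and 42.8 ± 4.16 FPKM in IncPBF lungs (adjusted p = 0.767). Rhbdf1, which carries the related protease Adam17 to the surface, was at 15.04 ± 0.61 and 16.4 ± 1.40 FPKM (adjusted p = 0.162), and was called higher with an equal total per lung (adjusted p = 0.0327).

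Of the 4 Janus kinases 2 fell. Jak1, the kinase that gp130 depends on most, went from 35.2 ± 4.23 to 28.0 ± 1.86 FPKM, a log2 difference of -0.32 (SE 0.08, adjusted p = 0.013). Jak2 went from 17.9 ± 1.04 to 15.8 ± 1.11 FPKM (log2 difference -0.18, SE 0.06, adjusted p = 0.0444), and lost its call when any lung but IncPBF lung 1 or sham lung 3 was left out, with quantile normalization (adjusted p = 0.073), without the filter (0.0733), without limma's trend (0.0621) and with an equal total per lung (log2 difference -0.10, adjusted p = 0.209). Jak3, which serves receptors of lymphoid cytokines, was at 7.15 ± 0.59 and 6.44 ± 1.07 FPKM (adjusted p = 0.269). Among the other STAT genes Stat6, the STAT of interleukin-4, fell from 30.5 ± 2.17 to 25.4 ± 1.25 FPKM (log2 difference -0.26, SE 0.06, adjusted p = 0.00602). Stat2, a STAT of interferon signalling, was not called, at 7.43 ± 0.394 FPKM in sham and 6.59 ± 1.58 FPKM in IncPBF lungs (adjusted p = 0.256). IncPBF lung 1 stood apart, with 9.37 FPKM against 5.63 to 6.29 in the remaining IncPBF lungs and 6.98 to 8.02 in sham lungs. Without this lung Stat2 was lower in the IncPBF group by limma, at a log2 difference of -0.33 (adjusted p = 0.00407). The lung was singled out by its Stat2 value in these same data. It is also the only IncPBF lung with low Xist. In the fit without it, surgery and sex, as read from Xist and Ddx3y, cannot be told apart. With log2 Xist as a covariate the log2 difference of Stat2 was 0.31, in a fit that rests mostly on IncPBF lung 1.

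Of the 13 other brakes of the route, 3 were higher and 3 lower, 23.1% each. Of all genes tested, 16.1% were higher and 16.2% lower. Socs1, which inhibits Janus kinases directly, rose most. It was at 1.07, 2.21, 2.05, 2.02 and 0.928 FPKM in sham lungs 1 to 5 and at 3.54, 4.00, 4.62, 3.51 and 2.40 FPKM in IncPBF lungs 1 to 5, a log2 difference of 1.13 (SE 0.25, adjusted p = 0.00605). Ptpn2, a phosphatase of Janus kinases and STATs, rose from 6.89 ± 0.828 to 9.05 ± 0.414 FPKM (adjusted p = 0.00303). Socs7 and Pias1 fell by 0.26 and 0.23 on the log2 scale (adjusted p = 0.0352 and 0.0219), with overlap of the groups. Both calls were lost with an equal total per lung (adjusted p = 0.0907 and 0.0735) and by the exact permutation test per gene (adjusted p = 0.0707 each), and Socs7 was -0.03 with log2 Xist as a covariate. Ptpn1, the brake with the highest level among those not called, was at 19.6 ± 1.78 FPKM in sham and 19.3 ± 1.05 FPKM in IncPBF lungs. The rise of Socs1 stood beside Socs2, which was higher in all IncPBF lungs, and Socs3 and Cish, which overlapped.

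Of the 6 adaptors that couple gp130 to the MAP kinase route, Gab2 and Gab1 fell, by 0.51 and 0.36 on the log2 scale (adjusted p = 0.0025 and 0.0141), and Shc1 rose by 0.17 (adjusted p = 0.017). Grb2, the best expressed of the list, was at 40.02 ± 2.68 FPKM in sham and 39.4 ± 1.49 FPKM in IncPBF lungs.

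Of 15 known STAT3 targets, 5 were lower and 2 higher. That is 33.3% and 13.3%, against 16.2% lower and 16.1% higher of all genes tested. Serpina3n, an acute-phase protease inhibitor, had 46.6, 39.4, 27.4, 40.3 and 41.4 FPKM in sham lungs 1 to 5 and 2.61, 3.70, 2.36, 2.92 and 3.01 FPKM in IncPBF lungs 1 to 5. The mean of the sham group was 13.4 times that of the IncPBF group, and the log2 difference was -3.69 (SE 0.15, adjusted p = 4.44e-07). Cebpd, an acute-phase transcription factor, fell from 26.6 ± 3.86 to 12.7 ± 1.19 FPKM (log2 difference -1.05, adjusted p = 4.99e-05) and Bcl2l1, which encodes the survival protein Bcl-xL, from 30.03 ± 5.61 to 17.1 ± 1.12 FPKM (log2 difference -0.79, adjusted p = 0.000545). Myc, which drives growth, rose from 2.39 ± 0.257 to 3.69 ± 0.425 FPKM (log2 difference 0.61, adjusted p = 0.00104). Mcl1, another survival gene, was the best expressed target, at 134.1 ± 7.81 FPKM in sham and 131.1 ± 3.37 FPKM in IncPBF lungs, and was not called (adjusted p = 0.693).

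Among 13 receptors that use STAT5, 9 passed the filter and 1 was called. Il7r, the receptor of interleukin-7 on lymphoid cells, fell by 0.70 on the log2 scale (SE 0.16, adjusted p = 0.00822), with overlap. Ghr, the growth hormone receptor, was at 16.7 ± 0.899 FPKM in sham and 17.8 ± 1.12 FPKM in IncPBF lungs (adjusted p = 0.235), and Csf2ra, the chain for granulocyte-macrophage colony-stimulating factor, at 12.9 ± 0.638 and 15.7 ± 2.68 FPKM (adjusted p = 0.0656). Both were called higher with an equal total per lung, at adjusted p = 0.0489 and 0.0278. Of the 6 STAT5 targets, Igf1, the growth factor that growth hormone induces, rose most. It stood at 5.06, 6.78, 8.50, 6.19 and 6.10 FPKM in sham lungs 1 to 5 and at 15.5, 17.9, 17.6, 16.7 and 15.6 FPKM in IncPBF lungs 1 to 5, a log2 difference of 1.36 (SE 0.11, adjusted p = 1.96e-05). Ccnd2, a cyclin of the G1 phase, rose by 0.63 on the log2 scale (SE 0.05, adjusted p = 1.32e-05) and Cdkn1a, an inhibitor of the cell cycle, fell by 0.95 (SE 0.15, adjusted p = 0.000927). Bcl2 was not called (adjusted p = 0.325). With log2 Xist as a covariate Cntfr, Il11ra1, Serpina3n, Cebpd, Bcl2l1, Igf1 and Ccnd2 were still called, 7 of the 20 called genes named here. The group difference of that fit rests mostly on IncPBF lung 1, the only IncPBF lung with low Xist.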

How the data were processed

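Bulk RNA of 10 mouse lungs was sequenced by the authors on NEBNext libraries. The authors deposited FPKM per gene with gene lengths. The submitters' processing notes name Bowtie 0.12.2 and the builds mm10, GRCm38 and hg38, and the counting tool and strand setting are not given in the sources used here. Gene positions in the table were checked against GENCODE M21 on GRCm38 and were identical for 98.3% of shared genes and all 10 members. The abbreviation in the IncPBF columns differs from that in the titles, and columns were matched by number.

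Dividing FPKM times gene length by the smallest step of a lung gave whole fragments for all values (tolerance 0.01). The 15388 genes whose FPKM averaged 0.5 or more entered limma 3.58.1 as log2(FPKM + 0.1) in R 4.3.3 (lmFit, eBayes with trend), two-sided, all 10 lungs, no covariates. The pseudocount lowers differences of weakly expressed genes. Fits were tested on simulated data. Alternatives were the pseudocount, filter, scaling, replicate block, Xist, each lung left out, limma-voom on recovered fragments, eBayes without trend and exact permutation per gene. Sequences came from RefSeq windows on GRCm38.p6, which matched 9 of 10 members, and GENCODE transcripts.

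The members and lists were chosen with earlier results of these data known. Named were all members, from each list up to 4 called genes with the largest difference and the 1 or 2 best expressed of the others, the 2 nearest genes of 4 members, Xist and Ddx3y. Lif lies outside this rule. Some genes that the rule names are not reported here, but they stay in the counts of their lists. Samples with the same number did not deviate together, so the numbers were not used to pair lungs.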

Additional observations from a re-analysis of the deposited data

Results flagged for a closer look

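In each group of 5 lungs, the highest or lowest lung was compared with the rest for 43 genes, the members and the named genes, which is 86 groups. Chance flags about 1 group in 20, and 5 were flagged by a gap that took up most of the range of the group.

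One of these is a member. Lifr stood at 24.35 FPKM in sham lung 1 and at 18.06 to 19.77 FPKM in the other 4 sham lungs. Without sham lung 1 all 5 IncPBF lungs were still below the sham lungs for Lifr, and over the 10 fits that each left out 1 lung its log2 difference ran from -0.69 to -0.58.

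The other 4 are pathway genes. IncPBF lung 1 had 9.374 FPKM of Stat2, with 5.63 to 6.29 FPKM in the other IncPBF lungs. This is the IncPBF lung with low Xist. IncPBF lung 3 had 5.394 FPKM of Clcf1, with 3.56 to 3.71 FPKM in the other IncPBF lungs. IncPBF lung 4 had 15.32 FPKM of Gab1, below 17.4 to 18.2 FPKM in the other IncPBF lungs. Sham lung 4 had 4.479 FPKM of Bcl2, above 3.53 to 3.80 FPKM in the other sham lungs.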

How the results depend on the processing

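Members kept the sign of their log2 difference under all 21 alternatives, except Cish under 1 of them. The lowest and highest values with 1 lung left out were -1.61 and -1.34 for Il6ra, and 5 or 6 members were lower and 1 higher without overlap. With IncPBF lung 1 as the only IncPBF lung, Socs3 moved to 0.37. Socs2 was 0.32 with an equal total per lung. Pathway genes called higher ranged from 7 to 9 and lower from 13 to 18 with 1 lung left out. They were 3 and 5 with log2 Xist as a covariate, beside 328 and 413 of all 15388 genes, and 2 and 2 with IncPBF lung 1 alone, beside 42 and 112. The replicate block left the pathway counts at 8 and 17 and all 20 named calls in place. The numbers paired no lungs: correlations of same-numbered deviations ran from -0.0675 to 0.0854, and 2 of 5 IncPBF lungs correlated best with their own number. With the block, 2390 of all genes were higher and 2482 lower.

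Of the 20 named calls, Jak2, Socs7 and Pias1 were lost when 1 of several lungs was left out and with an equal total per lung, and Socs7, Pias1 and Il7r by the exact permutation test (adjusted p = 0.0707, 0.0707 and 0.0538). With log2 Xist as a covariate 7 kept their call, in a fit whose group difference rests mostly on IncPBF lung 1. No named call changed sign. Genes that were not called changed sign as follows. With an equal total per lung Ptpn1 was 0.056, Grb2 0.058 and Mcl1 0.049. With log2 Xist as a covariate Stat2 was 0.31, Ptpn1 0.038, Grb2 0.042 and Mcl1 0.019, and with IncPBF lung 1 alone Stat2 was 0.33, Ptpn1 0.032, Grb2 0.035 and Mcl1 0.011. Leaving out 1 lung gave -0.014 to 0.094 for Adam10, -0.059 to 0.025 for Ptpn1 and -0.054 to 0.0014 for Grb2. The cause was not tested. Alternatives for Lif were chosen after seeing the data, and none gave an adjusted p under 0.05.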
